A study of Mus musculus with 48 samples.

Results

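The GW182 family of the mouse has the members Tnrc6a, Tnrc6b and Tnrc6c. Their mRNAs were followed through an RNA immunoprecipitation experiment in which an HA tag sat on the Tnrc6a protein, so that the tagged gene's own transcript could be set against those of its untagged paralogs. The members were taken by gene symbol, and all 3 were present among the 20171 genes of the count table. GW182 proteins are the scaffolds of microRNA silencing. They bind Argonaute proteins, which carry the microRNA, through repeats of glycine and tryptophan, and they bring the CCR4-NOT and PAN2-PAN3 deadenylases and the cytoplasmic poly(A)-binding protein to the targeted mRNA, which is then repressed in translation, deadenylated and degraded. The paralogs are widely regarded as overlapping in this role, and embryonic stem cells use the pathway to silence many developmental and cell cycle mRNAs.

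RNA was sequenced from cleared lysates (inputs) and from what magnetic beads with an HA antibody recovered from them (immunoprecipitates, IPs), with 48 libraries in all. The cells were mouse embryonic stem cells of the 129S6/SvEvTac background, grown on gelatin with serum and LIF. All of them carried the reporter yGlob [GFP_5xT71BS] and a stably transfected FLAG-Cas9::T2A::Blasticidin transgene, controls included. There were 4 genotypes: the untagged control, cells with an HA-AVI tag on Tnrc6a (called HA-Tnrc6a), and HA-Tnrc6a cells labelled Ago2-/- or Upf1-/-. Ago2 is an Argonaute with slicer activity, and Upf1 is a helicase of nonsense-mediated mRNA decay. Each genotype gave 6 inputs and 6 IPs, from dishes grown in triplicate in experiment 3 and again in experiment 4. The number of cell clones behind a genotype is not stated, so replicates of a genotype may share a clone, and the p-values measure the spread between these dishes. The table numbers the 6 libraries of a group without naming the experiment. Columns 1 to 3 and columns 4 to 6 are therefore treated as 2 sets of 3 libraries, and every comparison was formed within a set before the sets were averaged.

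Library totals ran from 11471544 to 19595405 counts in columns 1 to 3 and from 25724085 to 73845953 in columns 4 to 6. All 8 embryonic stem cell markers examined, among them Pou5f1 and Nanog, were high in every input, with a summed level of 6400 to 8089 CPM (a gene's counts relative to the library's total, scaled by TMM over all libraries). The summed levels of the lists for fibroblasts, endoderm, neuroectoderm and mesoderm reached at most 316 CPM, most of it Vim. Of the other fibroblast markers, Thy1 ran from 18.6 to 33.5 CPM, Col1a1 reached 4.31 CPM and Col1a2 0.71 CPM. The highest in the remaining lists were Sox1, Gata6 and Gata4, at up to 24.3, 18.6 and 18.4 CPM. HA-Tnrc6a inputs held 207 ± 2.62 and 316 ± 11.6 CPM of Ago2 mRNA (SD, n = 3 in columns 1 to 3 and in columns 4 to 6), while the inputs labelled Ago2 knockout held 94.6 ± 2.2 and 130 ± 5.65 CPM, and no library of one group reached the other. Gene-level mRNA counts do not show whether a protein was lost, and Upf1 mRNA was not lower under its knockout label. It was 77.6 ± 4.95 and 98.5 ± 1.58 CPM in HA-Tnrc6a inputs and higher, at 123 ± 0.87 and 139 ± 3.47 CPM, in the inputs labelled Upf1 knockout, so these cells are called labelled Upf1 knockout throughout, and directions drawn from them rest on that label alone.

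Tnrc6a (ENSMUSG00000052707) lies on chromosome 7 from 123031101 to 123195296, Tnrc6b (ENSMUSG00000047888) on chromosome 15 from 80711313 to 80941086, and Tnrc6c (ENSMUSG00000025571) on chromosome 11 from 117653703 to 117763439, by RefSeq on GRCm38.p6. The counts are sums over a gene, so the 16, 2 and 7 RefSeq transcripts of these genes are not told apart. The table gives the genes lengths of 12706, 23677 and 12843 bases. A long non-coding gene, Gm39084, overlaps the Tnrc6a interval and has no values of its own here. The microRNA gene Mir5113 lies at the end of the Tnrc6b interval, and its counts never exceeded 2.97 CPM in any library. Whether the counting used strand is not given in the sources used here, so reads of overlapping genes may be shared. The members were well covered, with between 335 and 1049037 counts per library.

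In the lysates, Tnrc6a and Tnrc6c mRNA were present at about the same level per length and Tnrc6b at a lower one. Across the 24 inputs, the ratio of Tnrc6a to Tnrc6b in counts per length ranged from 2.97 to 4.34 with a median of 3.65. The ratio of Tnrc6a to Tnrc6c ranged from 0.84 to 1.42 with a median of 1.08, and that of Tnrc6c to Tnrc6b from 2.53 to 4.42. Such a ratio is taken within 1 library, so it does not depend on how libraries are scaled to each other, although it does depend on the gene lengths in the table. In every input Tnrc6b was the lowest of the family, and the order of Tnrc6a and Tnrc6c went with the set and the genotype. Tnrc6a exceeded Tnrc6c in all 12 inputs of columns 1 to 3, by as little as 1.005 times. In columns 4 to 6 it lay below Tnrc6c in all untagged and HA-Tnrc6a inputs, at ratios of 0.84 to 0.98, and above it in all Ago2 knockout inputs, at 1.09 to 1.16, while the inputs labelled Upf1 knockout fell on both sides.

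HA-Tnrc6a and untagged lysates differed little in the GW182 mRNAs, although 7.74% of all genes tested were higher and 7.67% lower. Tnrc6a mRNA stood at 71.5, 78.1 and 78.8 CPM in the untagged inputs of columns 1 to 3 and at 66.6, 73.8 and 66.7 CPM in those of HA-Tnrc6a cells. In columns 4 to 6 the values were 90.5, 90.4 and 101 CPM against 88.6, 91.5 and 84.5 CPM. The groups overlapped in both sets. The fold change was small, with a log2 value of -0.12 ± 0.04 (SE) and an adjusted p of 0.0496 (edgeR quasi-likelihood F-test, Benjamini-Hochberg over all genes), where 7.67% of all genes tested were lower. It lay at the threshold: the adjusted p was 0.124 with library totals in place of TMM, 0.0509 with DESeq2 and 0.654 with all 48 libraries in 1 fit, and leaving out any of 8 of the 12 libraries (untagged columns 2, 3 and 6, HA-Tnrc6a columns 1, 3, 4, 5 and 6) gave up to 0.176. Tnrc6b (-0.01 ± 0.06, adjusted p = 0.923) and Tnrc6c (-0.08 ± 0.04, adjusted p = 0.162) did not pass the test in these inputs. Within libraries, the ratio of Tnrc6a to Tnrc6b was 0.93 times that of untagged inputs (exact permutation p = 0.16) and the ratio to Tnrc6c 0.97 times (exact permutation p = 0.385).

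All 3 GW182 mRNAs were higher in the lysate of Ago2 knockout cells than in that of HA-Tnrc6a cells. Tnrc6a stood at 98.3, 102 and 97.3 CPM in columns 1 to 3 and at 123, 130 and 120 CPM in columns 4 to 6 of the knockout, above every HA-Tnrc6a input of the same set. Its fold change was 1.42 (log2 0.51 ± 0.03, adjusted p = 1.65e-17 by edgeR), which was larger than that of 96.2% of the genes tested. Tnrc6b reached 47.2, 43.8 and 43.3 CPM against 35.1, 39.0 and 40.7 CPM in columns 1 to 3, and 65.8, 63.2 and 56.4 CPM against 46.8, 45.3 and 42.5 CPM in columns 4 to 6. The groups were again apart in both sets, with a fold of 1.27 (log2 0.34 ± 0.04, adjusted p = 1.18e-08 by edgeR). Tnrc6c moved least, from 67.8 ± 1.90 to 78.2 ± 5.67 CPM (SD, n = 3) in columns 1 to 3 and from 97.3 ± 4.45 to 113 ± 2.16 CPM in columns 4 to 6, a fold of 1.15 (log2 0.21 ± 0.03, adjusted p = 1.75e-06 by edgeR). The count of 3 of 3 higher members is read against the 15.7% of all genes that were higher in this comparison. The rise was unequal. Within libraries, the ratio of Tnrc6a to Tnrc6c was 1.23 times that of HA-Tnrc6a inputs, with no overlap in either set (exact permutation p = 0.005, the smallest that 400 labelings give; adjusted p = 0.0122 over 22 such tests). The ratio of Tnrc6a to Tnrc6b was 1.12 times as high (exact permutation p = 0.03, adjusted p = 0.0508), with 1.23 times in columns 1 to 3 and 1.03 times in columns 4 to 6. That ratio passed the exact permutation test without the HA-Tnrc6a input of column 5 (adjusted p = 0.0423) or the knockout input of column 4 (adjusted p = 0.0183).

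In the lysate of cells labelled Upf1 knockout, Tnrc6c was the member that differed. It stood at 58.6, 57.5 and 58.7 CPM in columns 1 to 3 and at 81.0, 80.0 and 87.0 CPM in columns 4 to 6, below every HA-Tnrc6a input of the same set, with a fold of 0.86 (log2 -0.22 ± 0.03, adjusted p = 2.92e-08 by edgeR). In this comparison 29% of all genes were lower and 29.5% higher, so a member that passed is no rarity. Tnrc6a (log2 -0.03 ± 0.03, adjusted p = 0.488) and Tnrc6b (log2 0.01 ± 0.04, adjusted p = 0.82) did not pass the edgeR test, and their signs turned with the scaling or the set. The ratio of Tnrc6a to Tnrc6c was 1.15 times that of HA-Tnrc6a inputs (exact permutation p = 0.01, adjusted p = 0.02). The ratio to Tnrc6b was 0.97 times (exact permutation p = 0.54).

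**Figure D1:**
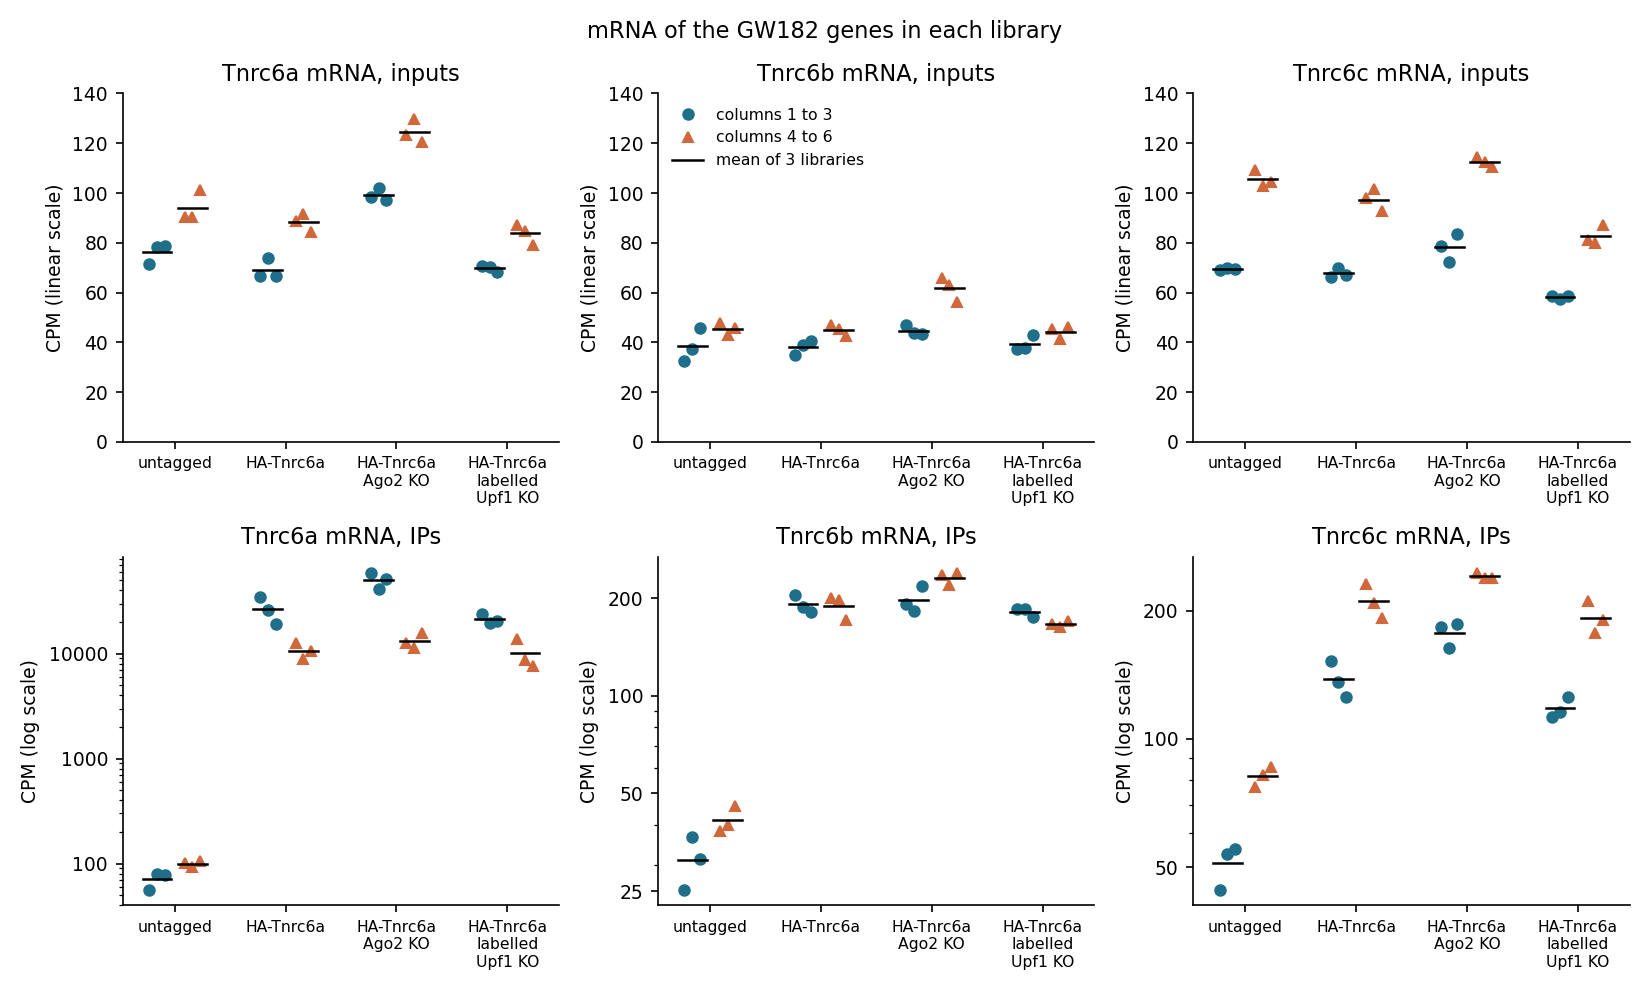
Levels of Tnrc6a, Tnrc6b and Tnrc6c mRNA in CPM in each of the 48 libraries, with inputs above on a linear axis and IPs below on a log axis, by genotype; circles are columns 1 to 3, triangles columns 4 to 6, and bars the mean of 3 libraries. Tnrc6a in the tagged IPs lies between 7686 and 58807 CPM, far above the untagged IPs at 56.6 to 105 CPM, while Tnrc6b and Tnrc6c in the tagged IPs lie between 113 and 246 CPM.

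In what HA beads recovered from lysate without a tag, the TMM-scaled level of Tnrc6a mRNA was near that in the lysate. Those of Tnrc6b and Tnrc6c were somewhat lower than in the lysate. As a share of all counts, Tnrc6a in columns 1 to 3 was lower, at 0.0049% to 0.0072% of untagged IPs against 0.0076% to 0.0087% of untagged inputs. In columns 4 to 6 the shares overlapped, at 0.0098% to 0.0109% against 0.0099% to 0.0111%. CPM is relative to a library's total and does not give the amount of RNA recovered. In untagged IPs, Tnrc6a stood at 56.6, 79.4 and 77.4 CPM in columns 1 to 3 and at 102, 92.2 and 105 CPM in columns 4 to 6, overlapping the untagged inputs in both sets (log2 -0.01 ± 0.07, adjusted p = 0.9 by edgeR). Tnrc6c was lower in untagged IPs than in untagged inputs, at 51.0 ± 5.89 against 69.6 ± 0.43 CPM and at 81.7 ± 4.31 against 105 ± 3.52 CPM (SD, n = 3), a fold of 0.75 (log2 -0.41 ± 0.05, adjusted p = 4.52e-06 by edgeR), where 17.8% of all genes were lower. Tnrc6b had a fold of 0.85 (log2 -0.23 ± 0.09, adjusted p = 0.0443 by edgeR), a call lost without any of 9 of the 12 libraries (inputs of columns 2 to 6, IPs of columns 1, 3, 4 and 5), where the adjusted p rose to at most 0.148, and within each set alone. The composition of the family differed between untagged IPs and inputs: the ratio of Tnrc6a to Tnrc6c was 1.32 times as high in untagged IPs as in untagged inputs (exact permutation p = 0.005, adjusted p = 0.0122) and the ratio to Tnrc6b 1.16 times as high (exact permutation p = 0.01, adjusted p = 0.02). The second of these did not pass the exact permutation test without the untagged IP of column 3 (adjusted p = 0.0592) or the untagged input of column 4 (adjusted p = 0.05). Scaling by library totals moved the median of all genes in this comparison from -0.03 to -0.20, and Tnrc6a with it to -0.18.

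With the tag, Tnrc6a mRNA was among the 3 transcripts with the highest recovery in each tagged genotype. In HA-Tnrc6a IPs it stood at 34244, 26128 and 19271 CPM in columns 1 to 3 and at 12657, 8841 and 10555 CPM in columns 4 to 6. In Ago2 knockout IPs the values were 58807, 41114 and 51684 CPM in columns 1 to 3 and 12689, 11211 and 15861 CPM in columns 4 to 6. The IPs labelled Upf1 knockout held 23626, 19552 and 20502 CPM in columns 1 to 3 and 13792, 8696 and 7686 CPM in columns 4 to 6. Every tagged IP was thus far above every untagged IP. This 1 gene took up between 0.70% and 4.83% of all counts of a tagged IP, against at most 0.011% of an untagged IP. Columns 1 to 3 were higher than columns 4 to 6 in each tagged genotype, with no overlap.

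Recovery is given here as the log2 ratio of IP to input in a tagged genotype less the same in untagged cells. For Tnrc6a it was 7.77 ± 0.18 in HA-Tnrc6a cells, a 219-fold difference (adjusted p = 3.34e-18 by edgeR), the highest of the 19993 genes tested. The Ago2 knockout gave 7.88 ± 0.13, again rank 1, and the labelled Upf1 knockout 7.66 ± 0.16, rank 3. The tag was on the product of this gene. The 3 comparisons share the untagged libraries and are not independent of each other. Among all genes, 29.8%, 31.5% and 31.8% had a higher recovery than in untagged cells in the respective comparisons.

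The paralogs were recovered too, though far less. Tnrc6b stood at 205, 188 and 181 CPM in the HA-Tnrc6a IPs of columns 1 to 3 and at 200, 198 and 171 CPM in columns 4 to 6, while untagged IPs held 25.3, 36.6 and 31.4 CPM and 38.3, 39.8 and 45.7 CPM. No tagged IP came near an untagged one. Its recovery was 2.44 ± 0.11 in HA-Tnrc6a cells, a 5.42-fold difference (adjusted p = 1.01e-19 by edgeR), 2.26 ± 0.10 in the Ago2 knockout and 2.36 ± 0.10 in the labelled Upf1 knockout. This placed Tnrc6b above 95.4%, 94.7% and 94.6% of the genes tested. Untagged IPs held 44.3, 53.8 and 55.1 CPM of Tnrc6c in columns 1 to 3 and 77.2, 82.1 and 85.7 CPM in columns 4 to 6. Those of HA-Tnrc6a cells held 152, 136 and 125 CPM and then 232, 209 and 193 CPM. Its recovery was 1.49 ± 0.08, a 2.81-fold difference (adjusted p = 1.21e-17 by edgeR), 1.56 ± 0.07 and 1.60 ± 0.07 in the same order of genotypes, above 88.8%, 89.8% and 89.2% of genes. All 3 members were thus higher in all 3 comparisons, which share the untagged libraries. Of all genes, 29.8%, 31.5% and 31.8% were higher in them. The order of recovery, Tnrc6a over Tnrc6b over Tnrc6c, was the same in each tagged genotype and in each set, whereas in the lysate Tnrc6c exceeded Tnrc6b per length.

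Within single libraries the shift of the family towards its tagged member was plain. In tagged IPs the ratio of Tnrc6a to Tnrc6b in counts per length ranged from 83.2 to 571, with a median of 176, against 4.04 to 4.97 in untagged IPs. The ratio of Tnrc6a to Tnrc6c ranged from 40.9 to 325, with a median of 111, against 1.14 to 1.49. For HA-Tnrc6a cells the mean ratio was 36.9 times that of untagged IPs with Tnrc6b as the reference and 74.7 times with Tnrc6c. For Ago2 knockout cells it was 51.0 and 95.3 times, and for cells labelled Upf1 knockout 35.1 and 73.3 times. Each of these 6 differences had no overlap in either set (exact permutation p = 0.005, adjusted p = 0.0122). The paralogs without a tag came closer to each other: the ratio of Tnrc6c to Tnrc6b per length was 1.12 to 2.34 in tagged IPs and 2.71 to 3.80 in untagged IPs, a difference that was not tested but in which no libraries overlapped.

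**Figure D2:**
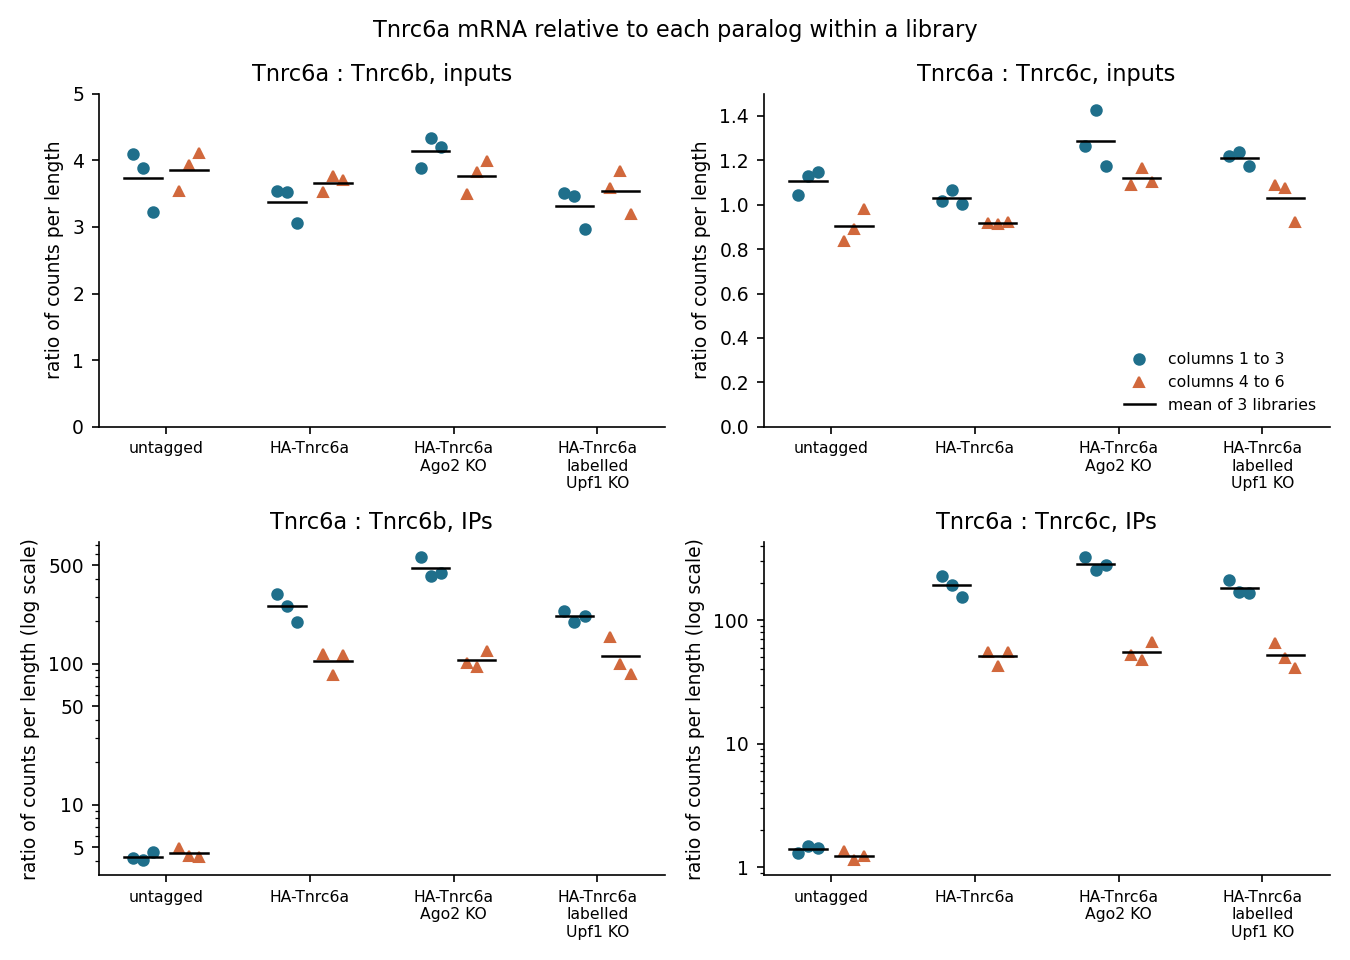
Ratio of Tnrc6a to Tnrc6b (left) and to Tnrc6c (right) in counts per length within each library, with inputs above on a linear axis from 0 and IPs below on a log axis; circles are columns 1 to 3, triangles columns 4 to 6, and bars the mean of 3 libraries. Tagged IPs lie at 83.2 to 571 and 40.9 to 325, while untagged IPs lie at 4.04 to 4.97 and 1.14 to 1.49, and inputs never exceed 4.34 and 1.42.

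The size of the Tnrc6a recovery differed between the sets. In HA-Tnrc6a cells it was 8.67 in columns 1 to 3 and 6.87 in columns 4 to 6, a difference of -1.80 ± 0.33 (adjusted p = 0.0235 by edgeR), which just 0.365% of all genes passed. In Ago2 knockout cells the recovery was 9.09 and 6.68 (difference -2.42 ± 0.23, adjusted p = 7.74e-07 by edgeR; 6.15% of genes passed). In cells labelled Upf1 knockout it was 8.45 and 6.86 (difference -1.59 ± 0.29, adjusted p = 0.00629 by edgeR; 1.68% of genes passed). For HA-Tnrc6a the call was lost when any of 8 of the 24 libraries was left out (HA-Tnrc6a inputs of columns 3, 4 and 5 and IP of column 6, untagged inputs of columns 4 and 5 and IPs of columns 4 and 6), at an adjusted p of at most 0.0612 and values from -1.80 to -1.76. Leaving out each of the 24 libraries in turn gave values from -1.99 to -1.57. Neither Tnrc6b nor Tnrc6c passed this test in any of the 3 comparisons. The sets differ in depth, and the part of depth or of any other difference between the experiments was not tested.

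Whether the loss of Ago2 changed the recovery of GW182 mRNAs was asked by setting the IP-to-input ratio of knockout cells against that of HA-Tnrc6a cells. No member passed the edgeR test, although 21.3% of all genes did. The log2 difference was 0.11 ± 0.16 for Tnrc6a (adjusted p = 0.716), -0.18 ± 0.08 for Tnrc6b (adjusted p = 0.0914) and 0.07 ± 0.07 for Tnrc6c (adjusted p = 0.566). For Tnrc6a the sets pointed in different directions, 0.40 in columns 1 to 3 and -0.19 in columns 4 to 6. For Tnrc6b they were equal at -0.18, and leaving out the Ago2 knockout IP of column 3 brought the value to -0.22 and past the threshold (adjusted p = 0.0363). Compared as IPs alone, without the inputs, all 3 mRNAs were higher in the knockout, by 0.65 for Tnrc6a (adjusted p = 0.000318), 0.20 for Tnrc6b (adjusted p = 0.0128) and 0.31 for Tnrc6c (adjusted p = 0.000337 by edgeR), beside the rises of 0.51, 0.34 and 0.21 in the lysate. In that comparison of IPs alone, 7482 genes passed in either direction, so a member that passed is no rarity. Within the IPs, the ratio of Tnrc6a to Tnrc6b was 1.38 times that of HA-Tnrc6a cells (exact permutation p = 0.06) and the ratio to Tnrc6c 1.27 times (exact permutation p = 0.05, adjusted p = 0.0786; 0.0471 without the knockout IP of column 5). Both were larger in columns 1 to 3, at log2 differences of 0.91 and 0.59, than in columns 4 to 6, at 0.02 and 0.11.

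For cells labelled Upf1 knockout against HA-Tnrc6a cells, no member passed the same test of recovery, where 4.49% of all genes did. The log2 difference was -0.13 ± 0.18 for Tnrc6a (adjusted p = 0.809 by edgeR), -0.09 ± 0.07 for Tnrc6b (adjusted p = 0.605) and 0.10 ± 0.07 for Tnrc6c (adjusted p = 0.515). The ratios within the IPs were 0.95 and 0.98 times those of HA-Tnrc6a IPs (exact permutation p = 0.71 and 0.85). A change of the size of these standard errors would not have been detected.

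**Figure D3:**
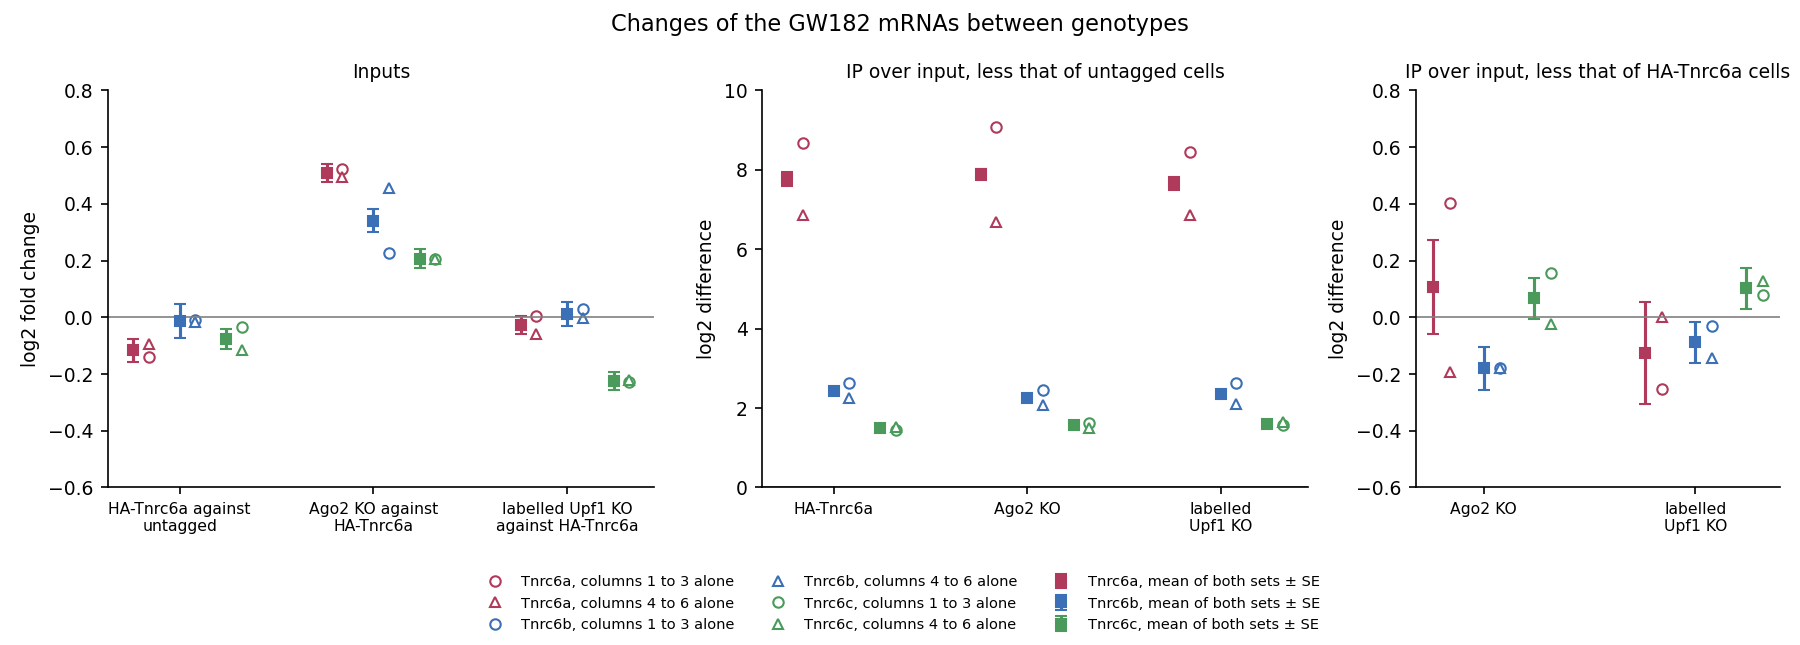
Log2 changes of Tnrc6a, Tnrc6b and Tnrc6c mRNA, with filled squares for the mean of both sets ± SE and open circles and triangles for columns 1 to 3 and columns 4 to 6 alone; the panels show inputs, the IP-to-input ratio less that of untagged cells, and the same less that of HA-Tnrc6a cells. In Ago2 knockout inputs all 3 members lie above 0, at 0.51, 0.34 and 0.21, and the recovery of Tnrc6a over untagged cells lies near 8 with its sets apart, from 6.68 to 9.09.

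The mRNAs of 31 proteins that work with GW182 were read beside the members: 4 Argonautes, 12 subunits of the CCR4-NOT and PAN2-PAN3 deadenylases, 2 poly(A)-binding proteins, 11 decapping and decay factors, and Trim71 and Dicer1. This list was chosen with earlier results of these data known, so its counts are a description and not an independent test. In HA-Tnrc6a cells 20 of the 31 had a higher recovery than in untagged cells and 6 a lower one, with a median log2 difference of 0.38, where 29.8% of all genes were higher, 32.2% lower and the median of all genes was -0.10. With library totals in place of TMM the counts were 16 and 10, where 25.6% and 39.9% of all genes were called. The largest values were those of Cnot6l (3.81 ± 0.11) and Cnot6 (3.55 ± 0.10), which encode catalytic deadenylases of CCR4-NOT, and of Ago1 (3.47 ± 0.09), each with an adjusted p of at most 2.91e-25 by edgeR. These exceeded Tnrc6b and Tnrc6c and stayed far below Tnrc6a. In Ago2 knockout cells 21 were higher and 5 lower (31.5% and 33.2% of all genes; with library totals 17 and 8, where 27% and 39.9% of all genes were), led by Cnot6l (3.43 ± 0.10), Ago1 (3.18 ± 0.07) and Cnot6 (3.09 ± 0.08). With the Upf1 knockout label 20 were higher and 6 lower (31.8% and 31.8% of all genes; with library totals 15 and 8, where 25% and 43.7% of all genes were), led by Cnot6 (3.97 ± 0.08), Cnot6l (3.79 ± 0.09) and Ago1 (3.47 ± 0.07).

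By role, all 4 Argonaute mRNAs had a higher recovery in each tagged genotype, where 29.8%, 31.5% and 31.8% of all genes did. Their median was 2.22 in HA-Tnrc6a cells. The Ago2 value in Ago2 knockout cells (1.06 ± 0.11) concerns the transcripts left from the targeted gene. In HA-Tnrc6a cells, where 32.2% of all genes were lower, 8 of the 12 deadenylase mRNAs were higher and 3 lower (median 0.29). Of the 11 decapping and decay mRNAs 6 were higher and 2 lower (median 0.50). Neither poly(A)-binding protein mRNA was higher and 1 was lower. Both Trim71, an RNA-binding repressor of mRNAs in stem cells, and Dicer1, the nuclease that makes mature microRNAs, were higher. In untagged cells 7 of the 31 were higher in IPs than in inputs and 14 lower, where 18% and 17.8% of all genes were, among them Cnot7 (0.67 ± 0.07), Ddx6 (-0.52 ± 0.08) and Trim71 (-0.50 ± 0.05). With library totals these counts were 2 and 21, where 10.3% and 39.2% of all genes were called.

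In the lysates, 1 of the 31 partners was higher in HA-Tnrc6a than in untagged cells and none lower, the one being Trim71 (log2 0.10 ± 0.03, adjusted p = 0.0327 by edgeR), where 7.74% of all genes were higher. In Ago2 knockout lysates 6 were higher and 8 lower, where 15.7% and 15.2% of all genes were. The largest changes were those of the targeted gene Ago2 itself (-1.21 ± 0.03), of Ago1 (0.49 ± 0.03) and of Cnot6l (0.33 ± 0.06). Ago1 therefore rose by about as much as Tnrc6a. In lysates labelled Upf1 knockout 11 were higher and 11 lower, where 29.5% and 29% of all genes were, with Ago2 (0.47 ± 0.03), Dcp2 (0.47 ± 0.03), the decapping enzyme, and Dcp1a (0.36 ± 0.04), its cofactor, the largest.

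Some partner mRNAs passed the test of recovery between tagged genotypes. In Ago2 knockout against HA-Tnrc6a cells 4 of the 31 were higher and 10 lower, where 9.09% and 12.3% of all genes were. Ago2 (-1.35 ± 0.07), Dcp2 (-0.86 ± 0.09) and Ago3 (-0.66 ± 0.10) fell most, each with an adjusted p of at most 8.5e-06 by edgeR. The Ago2 value concerns the transcripts left from the targeted gene. In cells labelled Upf1 knockout 4 were higher and 2 lower, where 2.92% and 1.57% of all genes were, with Ago4 (1.37 ± 0.23), Cnot6 (0.41 ± 0.08) and Dcp1b (0.37 ± 0.10) the largest. The member and partner changes were not tested against each other.

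**Figure D4:**
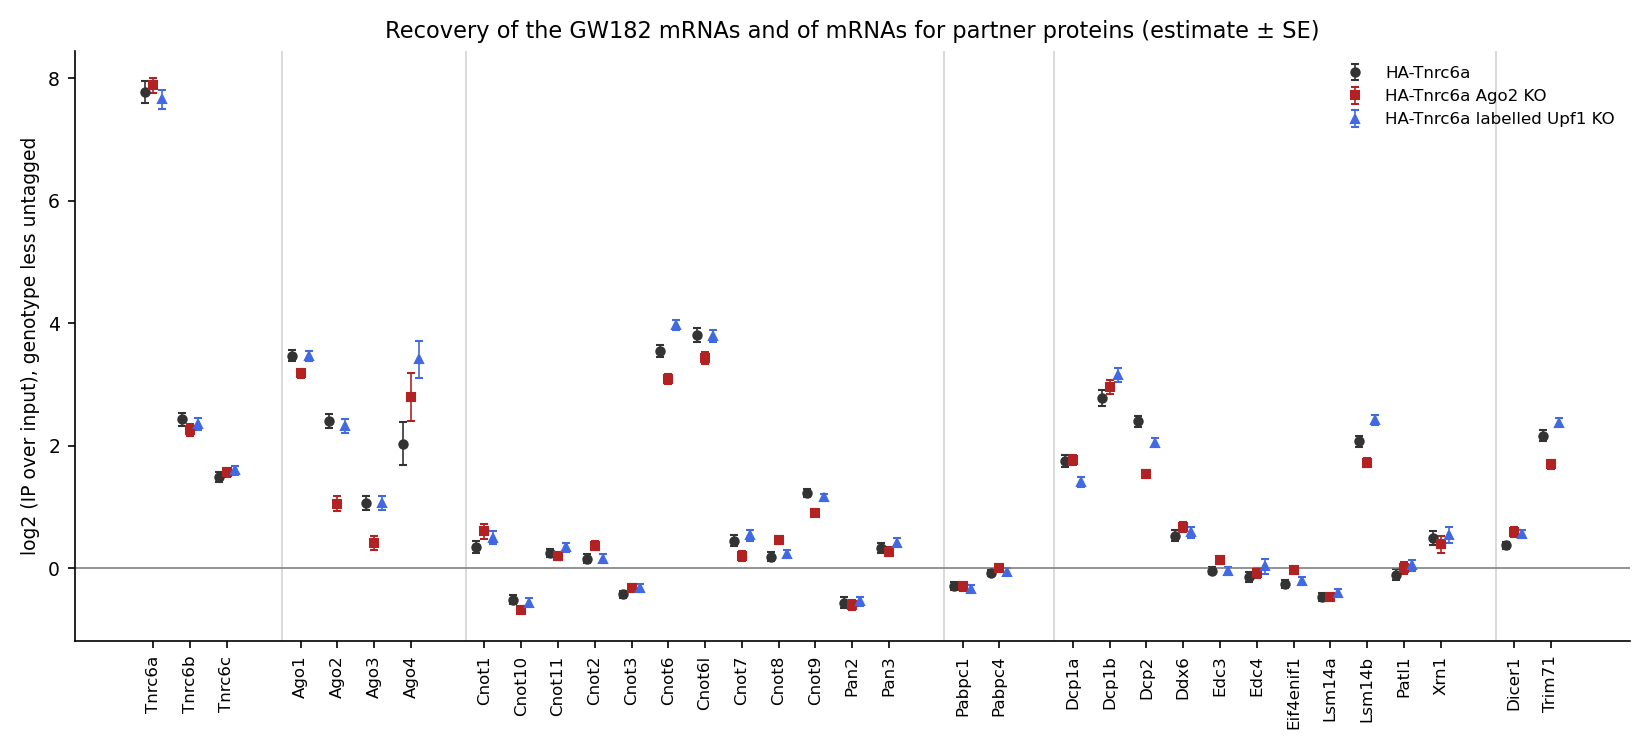
Log2 ratio of IP to input less that of untagged cells, with SE, for the 3 GW182 mRNAs and for 31 partner mRNAs grouped by role (Argonautes, deadenylases, poly(A)-binding proteins, decapping and decay factors, others) in the 3 tagged genotypes. Tnrc6a lies near 8 in each genotype, Cnot6, Cnot6l and Ago1 between 3.09 and 3.97, Tnrc6b between 2.26 and 2.44, and Tnrc6c between 1.49 and 1.60.

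As a description of pattern, the log2 CPM of each member was correlated with that of every other gene. Over all 48 libraries, in which the tagged IPs stood apart from the rest, the closest genes were Eya3, Cbx2 and Hddc3 for Tnrc6a (Pearson r 0.995, 0.995 and 0.994), Hif1an, Mrtfb and Slc35a4 for Tnrc6b (0.993, 0.993 and 0.992), and Tanc1, Rarg and Dyrk1a for Tnrc6c (0.981, 0.980 and 0.977). Over the 24 inputs, where the 2 sets and the genotypes make the differences, the closest included Polr3f, Zfp91 and Ddx19a for Tnrc6a (0.951, 0.941 and 0.935), Wdr37, Mysm1 and Hcfc1 for Tnrc6b (0.939, 0.910 and 0.899), and Ddx3x and Dhx9 for Tnrc6c (0.977 and 0.974). The members were less alike among themselves, at 0.861 for Tnrc6a and Tnrc6b, 0.817 for Tnrc6a and Tnrc6c, and 0.752 for Tnrc6b and Tnrc6c over the inputs. Libraries of 1 set share depth and handling, and no test was made of these values.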

How the data were processed

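The authors deposited 1 table with raw counts per gene and library, without normalization, and the same table has 48 further columns that were not used here. Reads were demultiplexed with bcl2fastq 2.20 and aligned with STAR 2.7.3a against GRCm38/mm10, per the submitters' processing notes; the roles of the tools are taken from their names, and the annotation, counter and strand setting are not given in the sources used here. The deposited gene length column is in bases per the file headers and served for values per length.

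Counts were fitted with edgeR 4.0.16 (R 4.3.3): TMM scaling, filterByExpr with a minimum count of 10, robust quasi-likelihood, 1 coefficient per genotype, fraction and set, contrasts averaged over both sets, two-sided F-tests, Benjamini-Hochberg adjustment over all genes and a threshold of 0.05. Just the groups compared entered a fit. The standard error is the log2 change divided by the square root of F. Ratios per length within a library were compared by exact two-sided permutation within the sets (400 labelings, smallest p 0.005), adjusted over 22 tests. CPM used TMM over all 48 libraries. Depth, with reads that carry no molecular identifiers, limits precision, and errors come from the replicates. The scripts were tested on simulated data.

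Named were the members, Ago2 and Upf1 in inputs, up to 3 partners per comparison with the largest change past the threshold, and the 3 genes most like each member (log2 CPM with a prior count of 2), of which 1 is not reported here. Members and lists were chosen with earlier results of these data known. Alternatives were RLE, library totals, no filter, DESeq2 1.42.0, all libraries in 1 fit, a replicate block, each set alone, IPs without inputs, each library left out and 0.5 added to counts. No replicate pair agreed within sampling noise.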

Additional observations from a re-analysis of the deposited data

Results flagged for a closer look

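The recovery of Tnrc6a mRNA over untagged cells differed between the 2 sets of libraries in each tagged genotype, by an interaction contrast in the edgeR fit with Benjamini-Hochberg adjustment over all genes. Columns 4 to 6 less columns 1 to 3 gave a log2 difference of -1.80 in HA-Tnrc6a cells (adjusted p = 0.0235), -2.42 in Ago2 knockout cells (adjusted p = 7.74e-07) and -1.59 in cells labelled Upf1 knockout (adjusted p = 0.00629). Each tagged IP of columns 1 to 3 was higher than each tagged IP of columns 4 to 6, 18 of 18 libraries in all, while Tnrc6a in the untagged IPs was higher in columns 4 to 6. The 3 comparisons share the untagged libraries. Neither Tnrc6b nor Tnrc6c passed this contrast.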

How the results depend on the processing

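The recoveries of all 3 members over untagged cells, their rises in Ago2 knockout lysates, the fall of Tnrc6c in lysates labelled Upf1 knockout and its lower level in untagged IPs kept their direction and stayed past the threshold under every alternative run. The correlation of deviations between same-numbered libraries averaged 0.011 over 168 pairs (-0.0054 for other numbers), with 2 pairs over 0.1, so the numbers were not taken as pairing the samples. The 168 pairs mixed genotypes and fractions, and pairs of an IP with an input of its own genotype were not examined apart. As a hint from the data, not the design, 35 of 48 libraries were closest to their own number, against 16 if numbers were arbitrary. Fitting the replicate block gave a recovery of Tnrc6a of 7.77 in HA-Tnrc6a cells and 0.51 in Ago2 knockout lysates, and changed no call of a member. For the recoveries, that block shared its effects between the genotypes compared, so any pairing of an IP with its own input was not tested.

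For HA-Tnrc6a against untagged lysates, the change of Tnrc6a was not past the threshold with library totals (-0.10), DESeq2 (-0.12), all 48 libraries in 1 fit (-0.12), columns 1 to 3 alone (-0.14) or columns 4 to 6 alone (-0.092), and without single libraries it ran from -0.14 to -0.089; Tnrc6c passed in columns 4 to 6 alone (-0.11), and Tnrc6b ran from -0.066 to 0.052 without single libraries. In lysates labelled Upf1 knockout, Tnrc6a turned to 0.015 with library totals and to 0.0071 in columns 1 to 3, and Tnrc6b to -0.0043 in columns 4 to 6 and to between -0.018 and 0.038 without single libraries. In untagged IPs against inputs, Tnrc6a was 0.11 in columns 4 to 6 and -0.057 to 0.054 without single libraries. Tnrc6b was -0.31 and -0.12 in the sets alone and -0.30 to -0.16 without single libraries. For Ago2 knockout against HA-Tnrc6a recovery, columns 4 to 6 gave -0.18 for Tnrc6a and -0.0092 for Tnrc6c, IPs without inputs gave 0.65, 0.20 and 0.31, and Tnrc6b ran from -0.22 to -0.14 without single libraries. For cells labelled Upf1 knockout, Tnrc6c was -0.011 in columns 1 to 3 and -0.16 in IPs without inputs, and Tnrc6a was 0.036 in columns 4 to 6. The difference between the sets for Tnrc6a ran from -1.99 to -1.57 in HA-Tnrc6a cells without single libraries.

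The counts of genes past the threshold were 2990 for HA-Tnrc6a against untagged lysates, against 1937 with all 48 libraries in 1 fit and 652 in columns 1 to 3. They were 6065 for Ago2 knockout lysates (3902 and 3382), 6892 for untagged IPs (1972 in columns 1 to 3), 4267 for the recovery in Ago2 knockout against HA-Tnrc6a cells (1623 in columns 1 to 3, 7482 in IPs alone), and 896 for that in cells labelled Upf1 knockout (162 and 384 in the sets alone, 8805 in IPs alone, 591 to 957 without single libraries, with the lowest counts without the HA-Tnrc6a inputs of columns 2, 3, 5 and 6). Sets alone have fewer libraries. With library totals the median log2 value of all genes was -0.20 in untagged IPs (-0.03 with TMM) and -0.25, -0.22 and -0.32 in the recoveries of HA-Tnrc6a, Ago2 knockout and labelled Upf1 knockout cells (-0.10, -0.07 and -0.06). The share of calls that were higher went from 50.3% to 20.9% in untagged IPs, from 50% to 36.4% in the recovery of cells labelled Upf1 knockout, and from 65.1% to 22.4% (52.8% with RLE) in their comparison with HA-Tnrc6a.

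Log2 differences of the ratio to Tnrc6b in columns 1 to 3 and 4 to 6 alone, where no test can pass, were 5.88 and 4.53 for HA-Tnrc6a, 6.79 and 4.55 for Ago2 knockout and 5.67 and 4.60 for labelled Upf1 knockout IPs against untagged ones, and 0.91 and 0.021 for Ago2 knockout against HA-Tnrc6a IPs and 0.30 and 0.039 in inputs. To Tnrc6c they were 7.08 and 5.36, 7.67 and 5.48, 7.02 and 5.37, and 0.59 and 0.11. Without single libraries, the ratio to Tnrc6b ran from 0.13 to 0.19 in Ago2 knockout against HA-Tnrc6a inputs, -0.20 to -0.11 in labelled Upf1 knockout against untagged inputs, -0.20 to 0.020 in their IPs against HA-Tnrc6a, and 0.16 to 0.25 in untagged IPs against inputs. That to Tnrc6c ran from 0.28 to 0.42 in Ago2 knockout and -0.12 to 0.053 in labelled Upf1 knockout against HA-Tnrc6a IPs, and 0.13 to 0.20 in labelled Upf1 knockout against untagged inputs, where the main value was 0.16 (exact permutation p = 0.025, adjusted p = 0.0458) and the call was lost without any of 7 of the 12 libraries (labelled Upf1 knockout columns 1, 2, 4 and 5, untagged columns 1, 4 and 5; adjusted p of 0.0677 to 0.0894). With library totals the gene most like Tnrc6a was Rab22a (r 0.994) and that most like Tnrc6b was Mrtfb (r 0.990).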
